A study of Mus musculus with 36 samples.

Results

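Ago2 binding to the mRNAs of 7 genes grouped here as MAPK negative feedback genes, Dusp4, Dusp5, Dusp6, Spry2, Spred1, Phlda1 and Ier3, was examined in colonic tumours of mice with and without oncogenic K-Ras. All peaks of Ago2-bound mRNA were taken whose annotated target gene is 1 of the 7. These came to 11 of 7730 merged peaks and to 7 of 3933 genes with a peak. Each gene had at least 1 peak, Spred1 had 4 and Dusp5 had 2, and no member peak was annotated to a second target gene.

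Growth factor receptors and active Ras switch on the kinases Raf, MEK and ERK. ERK in turn induces its own inhibitors, among them the dual-specificity phosphatases (Dusp), which remove phosphate from ERK and related kinases, and the Sprouty and Spred proteins, which act on Ras and Raf. In the gut epithelium the pathway drives proliferation, and mutant Ras keeps it active. miRNAs add a further layer, since Ago2 carries a miRNA to mRNAs that hold a match to its seed and lowers their output.

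The tumours called G12D were Halo-Ago2/+; Villin-CreER/+; Apc(fl/fl) with the K-Ras-G12D/+ allele, and the tumours called WT had the same alleles with wild-type K-Ras. Both genotypes thus lost Apc through a Cre that the Villin promoter restricts to gut epithelium, and both carried the Halo-tagged Ago2. The mice were C57BL/6, received at 8 to 12 weeks an enema of 200 µl of 4-hydroxytamoxifen at 5 mg/ml in ethanol, and were killed when moribund. Tumour lawns along the colon were crosslinked 3 times with UV light at 400 mJ/cm2, and Halo-Ago2 was pulled down with its miRNAs and mRNA fragments. There were 6 tumour samples per genotype, 3 of each in each of the 2 batches that the labels name. Whether each sample is a mouse of its own is not stated in the labels, and the spread that enters the p-values is that between the samples, which may be partly technical.

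The mRNA libraries held 30607 to 974013 reads in peaks, so all levels are given as CPM, the reads of a peak scaled to a library total of 1000000 reads in peaks. WT replicates 5 and 6 stood apart with 30607 and 57037 reads, and 59.8% and 34.0% of all peaks had no read in them. In WT replicate 5 a single read is worth 32.7 CPM, and a count of 0 still allows a level of up to 98.0 CPM. The fold changes of the member peaks are therefore also given without these libraries. Colon epithelium markers had a peak for 11 of 15 genes, with summed levels of 16785 to 45423 CPM in G12D (median 22162) and 6012 to 56814 in WT libraries (median 25381). Without WT replicates 5 and 6 the WT sums were 23886 to 56814 CPM (median 40359). The median log2 fold change of these markers was 0.68 against 0.57 over all genes, and 0.04 against 0.03 without these libraries. Peaks were found for 4 of 13 fibroblast and smooth muscle markers, with summed levels of 683 to 1876 CPM in G12D (median 1145) and 131 to 1903 in WT (median 638). All 4 had a positive log2 fold change, with a median of 1.11 against 0.57 over all genes, and of 0.20 against 0.03 without WT replicates 5 and 6. Of 5 nerve markers only Ret had a peak (log2 fold change 1.65, SE 0.70, and 0.50 without these libraries), as had 1 of 9 leukocyte and 0 of 5 endothelial markers. limma called none of these markers at an adjusted p of 0.05 (Ret and the epithelial Cdx2 had an unadjusted p under 0.05), and the part of these cells in any result was not tested. In bulk tumour, fewer cells of a type and less RNA per cell cannot be told apart, and a peak's level mixes the amount of an mRNA with Ago2 binding to it.

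The authors' annotation places miRNA seed sites in 8 of the 11 peaks, and 6 peaks have a site longer than 6 bases. These shares, 72.7% and 54.5%, compare with 88.6% and 76.0% of 7585 annotated peaks. The mature miRNAs of the families with the longer sites are shown because those sites are what the 11 peaks offer to Ago2. Of the 46 measured miRNAs in the families at member peaks, 42 had a sequence in RefSeq (GRCm38.p6). Capitals mark the seed, bases 2 to 8. The miR-15/16 family, with an 8mer site in the second and in the fourth Spred1 peak, shares 1 seed:
miR-16-5p: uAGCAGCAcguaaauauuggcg
miR-15a-5p: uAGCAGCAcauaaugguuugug
miR-322-5p: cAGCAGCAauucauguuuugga
The seed of miR-103-3p and miR-107-3p is the miR-15/16 seed moved by 1 base, and its 6mer lies within the miR-15/16 8mer of both Spred1 peaks:
miR-103-3p: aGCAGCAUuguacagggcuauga
The miR-181 family, with an 8mer in the Phlda1 peak and a 7mer in the second Dusp5 peak, has 4 measured miRNAs with 1 seed:
miR-181a-5p: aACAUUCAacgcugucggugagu
miR-181d-5p: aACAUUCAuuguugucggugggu
The second Dusp5 peak also holds sites of these miRNAs, the miR-23 site being an 8mer:
miR-23a-3p: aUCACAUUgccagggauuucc
miR-141-3p: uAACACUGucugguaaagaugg
The first Dusp5 peak holds 8mers of the first pair below and a shorter site of miR-92a-3p:
miR-16-1-3p: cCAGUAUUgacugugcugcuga
miR-345-5p: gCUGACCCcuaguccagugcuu
miR-92a-3p: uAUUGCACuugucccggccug
The remaining 7mers, in the second and the first Spred1 peak, belong to these:
miR-183-5p: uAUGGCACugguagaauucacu
miR-194-5p: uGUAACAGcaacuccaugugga

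An 8mer site is the complement of the seed followed by A. It reads TGCTGCTa for miR-15/16, TGAATGTa for miR-181 and AATGTGAa for miR-23, with the seed match in capitals. miR-15/16 sites longer than 6 bases stood in 2 of the 11 peaks and in 6.24% of all annotated peaks, and miR-181 sites in 2 of 11 and in 1.85%. The fourth Spred1 peak also holds a 7mer of miR-140-5p. The Dusp4 and Ier3 peaks hold 6mers only, of miR-652-3p, of miR-29-3p and of the family of miR-28-5p and miR-708-5p in Dusp4, and of miR-200ab-5p in Ier3. The peaks of Dusp6 and Spry2 and the third Spred1 peak hold no annotated site.

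By position, 7 of the 11 peaks lay in 3′ UTRs, 3 in exons and 1 in an intron, against 49.6%, 32.2% and 12.1% of all annotated peaks in 3′ UTRs, exons and introns. Their widths of 52 to 86 bases (median 57) were close to the median of 56 over all annotated peaks. Their levels were ordinary too, with a median of 50.1 CPM against 55.7 over all peaks. Per base of peak, the second Spred1 peak ranked 633 and the Dusp6 peak 1514 of 7585 by their mean over 12 libraries, and the Ier3 peak ranked 7206. The authors called 1 list of peaks per genotype. All 11 peaks were in the G12D list, and 3 of them, those of Dusp4 and Phlda1 and the second of Spred1, were also in the WT list. The 72.7% found in the G12D list alone compare with 71.9% of all annotated peaks, so the share is near the background. Within the lists, ordered by the authors' score, the Phlda1 peak ranked 5822 of 7569 in G12D and 1210 of 2186 in WT, and the second Spred1 peak ranked 772 and 1193.

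Across the 7 genes, Dusp6 and Spred1 had positive and Phlda1 negative log2 fold changes, G12D against WT, under all processing alternatives run. In the main limma fit none of the differences passed the test across all peaks or genes. limma, with batch as a covariate, called 0 of 7527 peaks and 0 of 3897 genes at an adjusted p of 0.05, that is 0.0% of all peaks and 0.0% of all genes, and hence 0 of 11 member peaks and 0 of 7 genes. At an unadjusted p of 0.05 it called 762 peaks higher in G12D (10.1%) and 94 lower (1.25%). Among the 11 peaks these were 3 higher, the Dusp6 peak and the first and second of Spred1, and 1 lower, that of Phlda1. The median log2 fold change was 0.70 over the member peaks and 0.58 over all peaks, and 9 of 11 member peaks and 80.9% of all peaks had a positive one. Without WT replicates 5 and 6 the medians were 0.08 for member peaks and -0.01 for all peaks. Within batch 1 the median was 0.01 over all peaks and 0.06 over all genes. Within batch 2, which holds both shallow libraries, it was 1.16 over all peaks and 1.08 over all genes. Changes are therefore best read against these medians. For libraries said below to lie above or below all of the other genotype, the share over all peaks was not counted.

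**Figure D1:**
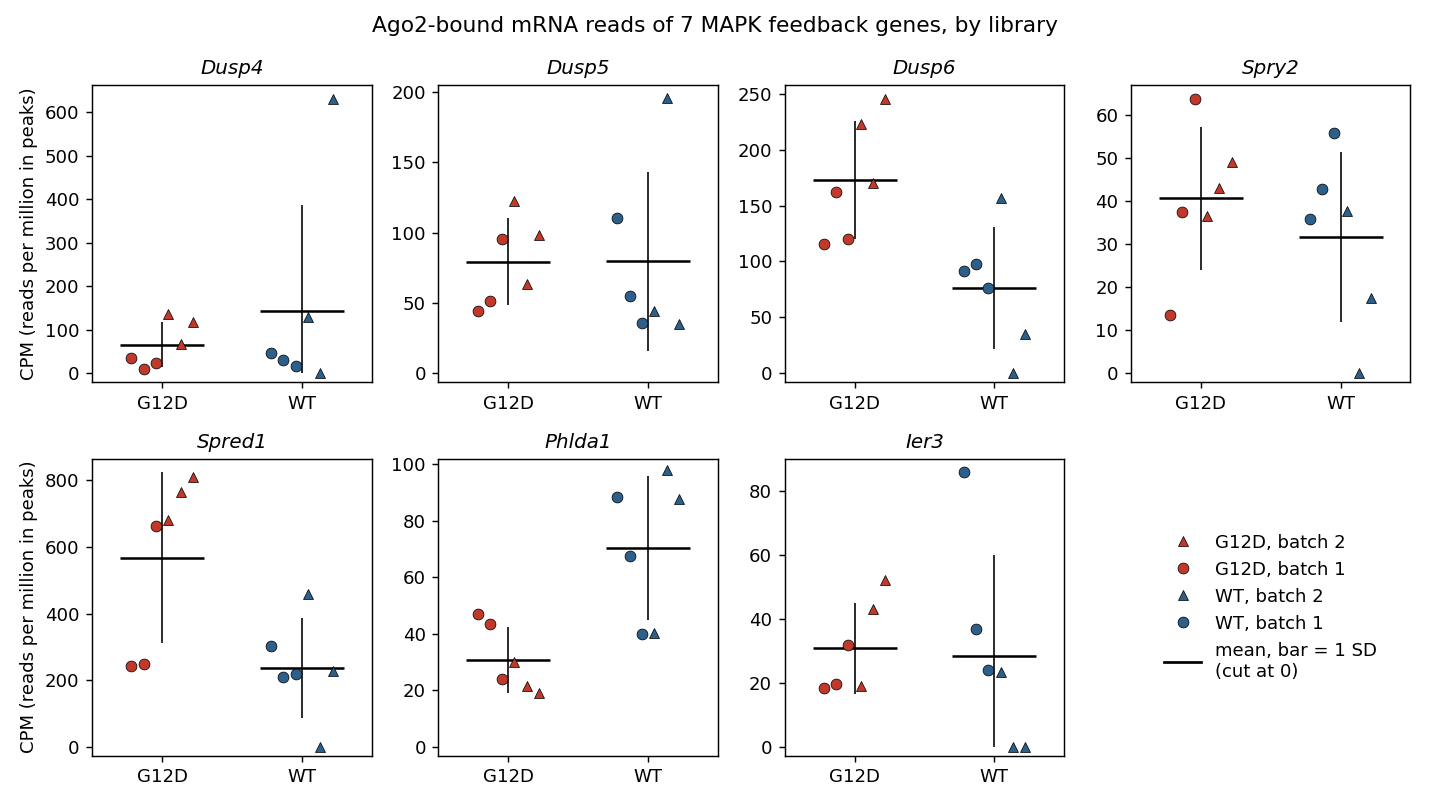
CPM (vertical axes, linear, 1 scale per panel) of the 7 genes in 6 G12D and 6 WT libraries, with triangles for batch 2, circles for batch 1, lines for means and bars for 1 SD (cut at 0). Dusp6 has 4 G12D libraries above all WT libraries, Phlda1 has 4 G12D libraries below all WT libraries, and every other panel but that of Spred1 shows wide overlap.

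Dusp6 encodes the cytoplasmic phosphatase that inactivates ERK. Its peak is an exon peak at chr10:99264682-99264738 (plus strand, GRCm38). The peak had 116.0, 162, 119.6, 223, 170.4 and 246 CPM in G12D replicates 1 to 6, against 91.3, 98.1, 75.9, 157, 0 and 35.1 CPM in WT replicates 1 to 6. Of the G12D libraries 4 exceeded all WT libraries, and 5 of 6 WT libraries lay below all G12D libraries. The means were 173 ± 52.9 in G12D and 76.2 ± 54.3 in WT (SD, n = 6 each). The log2 fold change was 1.65 (SE 0.68), with an adjusted p of 0.437 in limma. The low end of WT rests on 0 reads in replicate 5, which allow up to 98.0 CPM, and on 2 reads in replicate 6, whose exact 95% interval is 4.25 to 127 CPM. The log2 fold change was 0.94 without WT replicate 5 and 0.50 (SE 0.26) without both. Within batch 1 it was 0.55, and within batch 2, which holds both shallow libraries, 2.76. The G12D mean was the higher in each of these fits.

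Dusp4 and Dusp5 encode nuclear MAPK phosphatases induced by ERK. The Dusp4 peak, in the 3′ UTR at chr8:34819623-34819680 (plus strand), had 35.8, 9.88, 23.9, 135, 67.8 and 119 CPM in G12D replicates 1 to 6. In WT replicates 1 to 6 it had 47.0, 30.7, 15.97, 129, 0 and 631. The genotypes overlapped, and WT replicate 6, with 36 reads, stood far above the rest. The means were 65.2 ± 51.8 in G12D and 142 ± 244 in WT (SD, n = 6 each). The log2 fold change was 0.07 (SE 0.83, adjusted p = 0.971 in limma) with all libraries and -0.36 without WT replicates 5 and 6, so its sign depends on these libraries. The values separated more by batch: 5 of the 6 libraries of batch 2 had 67.8 CPM or more, and the 6 of batch 1 had 9.88 to 47.0.

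Dusp5 had both peaks at the end of the gene, at chr19:53541414-53541473 and chr19:53542305-53542361 (plus strand), 831 bases apart and both annotated as 3′ UTR. The centre of the second lies past the end of the gene in RefSeq of the same build. The summed level was 44.4 to 123 CPM in G12D (median 79.7) and 35.1 to 196 in WT (median 49.7), with wide overlap. The first peak, with the miR-16-1 and miR-345 sites, averaged 34.0 ± 16.4 in G12D and 24.6 ± 24.5 in WT (SD, n = 6 each), a log2 fold change of 0.76 (SE 0.64, adjusted p = 0.574 in limma). It was 1.18 without WT replicate 5, 0.33 without WT replicate 6, which had 0 reads in this peak, and 0.74 without both. The second, with the miR-23, miR-141 and miR-181 sites, averaged 45.3 ± 18.3 in G12D and 54.9 ± 40.5 in WT, a log2 fold change of -0.10 (SE 0.50), and of 0.03 without WT replicates 5 and 6. The fold change of the first peak was 0.23 within batch 1 and 1.29 within batch 2. That of the second was -0.23 within batch 1 and 0.03 within batch 2. Neither peak separated the genotypes.

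Spry2 encodes a Sprouty protein that blocks the pathway between receptor and Raf. Its exon peak at chr14:105892860-105892912 (minus strand) had 13.6 to 63.8 CPM in G12D (median 40.3) and 0 to 55.9 in WT (median 36.8). The ranges overlapped almost fully. The log2 fold change of 0.56 (SE 0.61, adjusted p = 0.648 in limma) was close to the median of all peaks. It was -0.20 without WT replicates 5 and 6, -0.38 within batch 1 and 1.498 within batch 2.

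Spred1 encodes a membrane protein that brings the Ras GTPase-activating protein neurofibromin to Ras. Per base of peak, its second peak had the highest mean of the 11. The sum over its 4 peaks was 242, 249, 662, 679.5, 764 and 809.6 CPM in G12D replicates 1 to 6, against 304, 208, 219.6, 459.6, 0 and 228 in WT replicates 1 to 6. Of the G12D libraries 4 were above all WT libraries, and replicates 1 and 2 were within the WT range. The means were 568 ± 255 in G12D and 237 ± 149 in WT (SD, n = 6 each), a log2 fold change of 1.85 (SE 0.88, adjusted p = 0.406 in limma). It was 0.81 without WT replicate 5, 0.57 without WT replicates 5 and 6, 0.50 within batch 1 and 3.21 within batch 2. The medians over all genes were 0.06 within batch 1 and 1.08 within batch 2.

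The estimated log2 fold changes of the Spred1 peaks ran from 0.32 to 1.88, with SEs of 0.55 to 0.83. The first, an intron peak at chr2:117146886-117146937 (plus strand) with a miR-194 site, averaged 81.4 ± 49.9 in G12D and 27.1 ± 24.97 in WT (SD, n = 6 each; log2 fold change 1.80, SE 0.73). The second, an exon peak at chr2:117177858-117177915 with the miR-15/16 8mer, averaged 400.2 ± 238 in G12D and 142 ± 117 in WT (log2 fold change 1.88, SE 0.83). Both had 4 G12D libraries above all WT libraries and an adjusted p of 0.437 in limma. The third, at chr2:117178102-117178158 in the 3′ UTR and 186 bases downstream, averaged 37.3 ± 14.5 in G12D and 21.9 ± 21.6 in WT (log2 fold change 1.18, SE 0.67). The fourth, at chr2:117180184-117180236 and also in the 3′ UTR, averaged 48.7 ± 36.8 in G12D and 45.6 ± 35.7 in WT (log2 fold change 0.32, SE 0.55). Without WT replicates 5 and 6 the fold changes of the first to the fourth peak were 0.51, 0.72, 0.14 and 0.08. Those of batch 1 alone were 0.37, 0.70, 0.34 and 0.03, and those of batch 2 alone 3.23, 3.07, 2.02 and 0.62. The differences between peaks were not tested.

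In the authors' deposited table, 3 of the 11 peaks were called higher in G12D at an adjusted p of 0.05, where 9.92% of 7613 peaks were. They were the peak of Dusp6 (log2 fold change 1.57, adjusted p = 0.0479) and the first (1.72, adjusted p = 0.0434) and second of Spred1 (1.93, adjusted p = 0.0308), all near the threshold. DESeq2 run here on the recovered reads with the deposited size factors called the same number, and in all 760 peaks higher and 27 lower of 7527. With size factors computed from the peaks themselves it called 0 of 11, and 123 of 7527 peaks in all. That fit gave an adjusted p to 4295 peaks, and the first Spred1 peak was not among them. Relative to the median of all peaks in each fit, the log2 fold change of the Dusp6 peak was 0.71 under both sets of size factors. That of the first Spred1 peak was 0.86 with the deposited and 0.91 with the other size factors, and that of the second was 1.07 and 1.08.

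**Figure D2:**
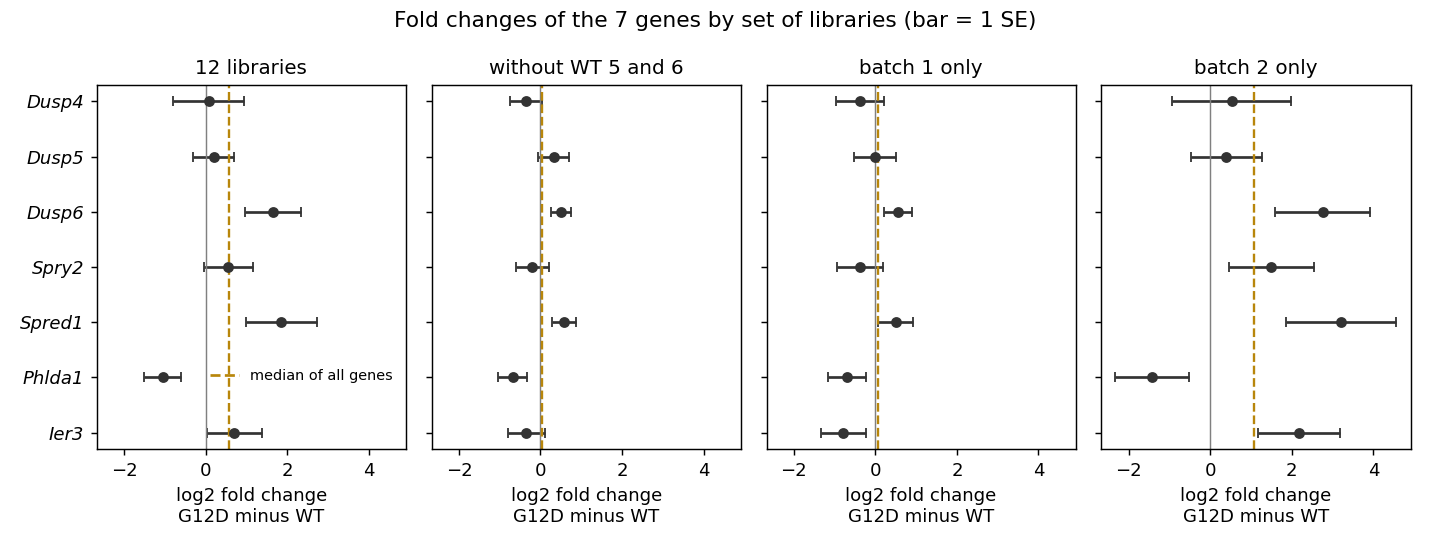
Log2 fold changes, G12D minus WT, of the 7 genes (points, bars of 1 SE) fitted on all 12 libraries, without WT replicates 5 and 6, and within each batch, with the median of all genes as a dashed line and 0 in grey. Dusp6 and Spred1 lie right of the median and Phlda1 left of it in every panel, while Ier3 is at -0.78 in batch 1 and 2.18 in batch 2.

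Phlda1 encodes a pleckstrin-homology protein that ERK signalling induces. Its peak, in the 3′ UTR at chr10:111508388-111508439 (plus strand) with the miR-181 8mer, went against the median of all peaks. It had 46.9, 43.5, 23.9, 30.2, 21.6 and 19.0 CPM in G12D replicates 1 to 6, against 88.5, 67.4, 39.9, 40.2, 98.0 and 87.7 in WT replicates 1 to 6. Of the G12D libraries 4 were below all WT libraries, and 4 WT libraries were above all G12D libraries. The means were 30.8 ± 11.8 in G12D and 70.3 ± 25.4 in WT (SD, n = 6 each), a log2 fold change of -1.05 (SE 0.48, unadjusted p = 0.0392, adjusted p = 0.437 in limma). It was negative within batch 1 (-0.69) and within batch 2 (-1.42), and without WT replicates 5 and 6 (-0.69, SE 0.35). The levels of WT replicates 5 and 6 come from 3 and 5 reads. On the scale of the authors' size factors the means were 12.7 ± 4.58 normalised counts in G12D and 14.8 ± 3.45 in WT, and their table gives a log2 fold change of -0.17 with an adjusted p of 0.730.

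Ier3 encodes an immediate early protein tied to ERK activity and cell survival. Its peak at chr17:35822619-35822704 (plus strand) is annotated as its 3′ UTR and also touches the annotation of Flot1, so reads of these genes may not be told apart there. It had 18.5 to 52.3 CPM in G12D (median 25.8) and 0 to 85.7 in WT (median 23.7), and the ranges overlapped. The log2 fold change was 0.70 (SE 0.67, adjusted p = 0.610 in limma), -0.35 without WT replicates 5 and 6, -0.78 within batch 1 and 2.18 within batch 2. The test of that difference between batches gave an unadjusted p of 0.0207 and an adjusted p of 0.535, and limma called 0 of 7527 peaks in it (634 at an unadjusted p of 0.05). WT replicates 5 and 6 had 0 reads.

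Between the batches 1 member peak passed the threshold, a comparison made after the values were seen. The fourth Spred1 peak had 0 to 35.1 CPM in the 6 libraries of batch 2 and 47.9 to 108.6 in the 6 of batch 1. These observed ranges did not overlap, but some of the values rest on few reads. WT replicate 5 had 0 reads, which allow up to 98.0 CPM, and WT replicate 6 had 2 (exact 95% interval 4.25 to 127 CPM). The lowest library of batch 1, G12D replicate 3, had 6 reads (17.6 to 104 CPM). How many of all peaks had no overlap between the batches was not counted. The log2 difference of the fourth Spred1 peak, batch 2 minus batch 1, was -1.94 (SE 0.55, adjusted p = 0.0195 in limma), where 20.8% of all peaks were called. The second Spred1 peak, with the same 8mer, had a median of 444.8 in batch 2 and 102 in batch 1, a log2 difference of 0.57 (SE 0.83, adjusted p = 0.662). Without WT replicates 5 and 6 limma called 3 member peaks, where 29.0% of all peaks were called: the fourth Spred1 peak lower (-1.70, SE 0.33, adjusted p = 0.0042), and the second Spred1 peak (1.73, SE 0.42, adjusted p = 0.0111) and the Dusp4 peak (2.03, SE 0.40, adjusted p = 0.0043) higher in batch 2. Without WT replicate 5 alone the count was also 3 (1969 of 7527 peaks in all). Without G12D replicate 2, WT replicate 2 or WT replicate 3 it was 0 (967, 799 and 756 peaks in all). edgeR called 2 member peaks, where 2048 of 7527 peaks were called, and limma with library weights called 6, where 4712 were called.

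The reads of both peaks can be set against each other within each library, where scaling plays no part. Of the reads in the second and the fourth Spred1 peak, the fourth held 3.59%, 3.58% and 2.91% in the G12D libraries of batch 2, against 39.1%, 55.6% and 9.52% in those of batch 1. In WT it held 4.78% and 15.4% (2 of 13 reads) in batch 2, where replicate 5 had no read in either peak, against 24.4%, 48.0% and 54.5% in batch 1. The genotypes overlapped within batch 1, where G12D replicate 3 was the lowest with 6 of 63 reads. The means were 6.05 ± 5.26% in batch 2 (SD, n = 5) and 38.5 ± 18.3% in batch 1 (n = 6). Without WT replicates 5 and 6 the batch 2 mean was 3.71 ± 0.78% (SD, n = 4). Both peaks were chosen for their difference between the batches in these reads, so the shares are a description with no test. The summed miR-15/16 family differed by 0.05 (SE 0.06, adjusted p = 0.565 in limma) on the log2 scale between the batches. Of the other families with a site in either peak, limma called miR-17/20 (-0.41, adjusted p = 0.0016) and miR-181 (-0.48, adjusted p = 0.0178), both lower in batch 2. It did not call miR-183, miR-140, miR-532, miR-200ab-5p or miR-103-3p with miR-107-3p. Among all 87 families it called 10 higher and 16 lower in batch 2. The part of any miRNA in the shares was not tested.

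**Figure D3:**
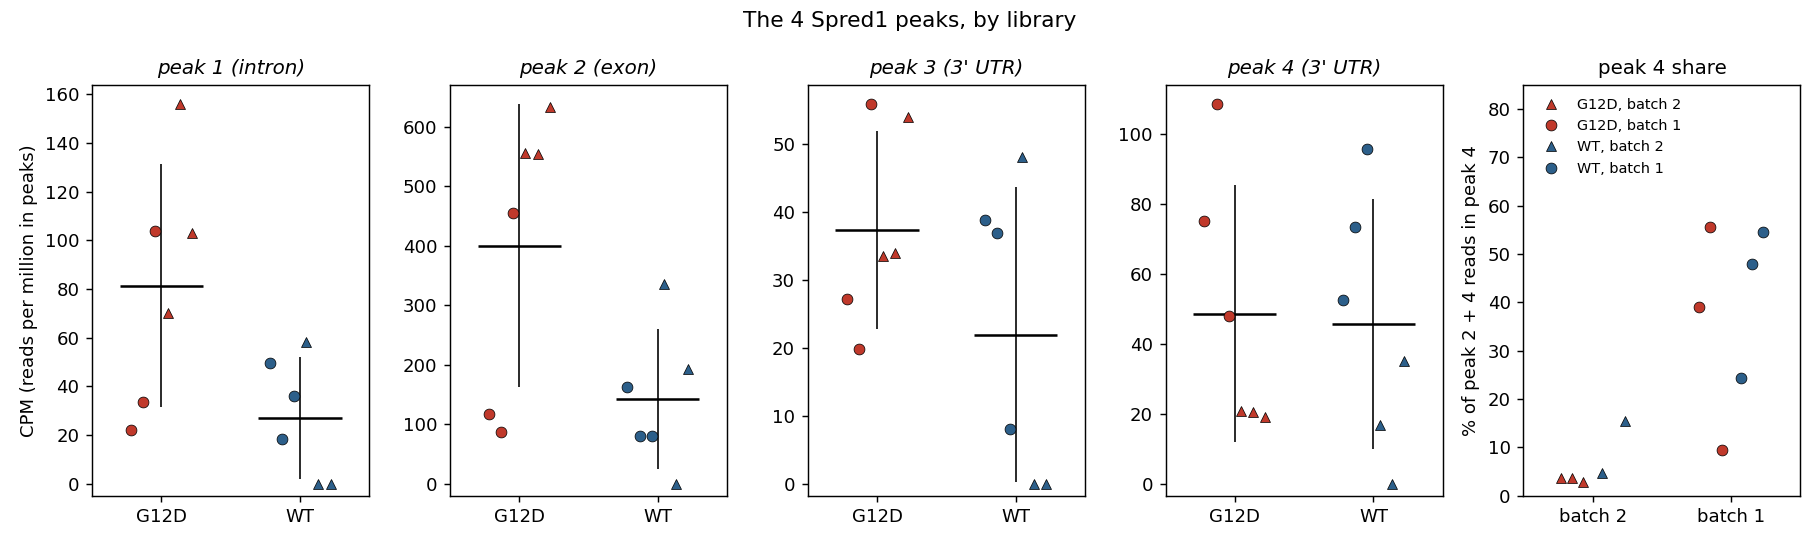
The left 4 panels give CPM of the Spred1 peaks in G12D and WT libraries (triangles batch 2, circles batch 1, line the mean, bar 1 SD). The right panel gives the percentage of the reads of peaks 2 and 4 that lie in peak 4, which is 2.91% to 15.4% in batch 2 and 9.52% to 55.6% in batch 1, with both genotypes in both clouds.

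The miRNAs that the sites name were measured in the same tumours, as the authors' normalised counts. limma called 11 of 284 miRNAs (3.87%) between the genotypes and 2 of the 45 tested miRNAs of the site families. miR-23a-3p rose, with 2006 to 3758 normalised counts in G12D (median 2864) and 1707 to 2054 in WT (median 1924), and 5 of 6 G12D libraries were above all WT libraries. Its log2 fold change was 0.51 (SE 0.11, adjusted p = 0.0189). miR-449a-5p fell, with 48.9 to 109.6 normalised counts in G12D (median 81.1) and 119 to 446 in WT (median 213), without overlap. Its log2 fold change was -1.43 (SE 0.28, adjusted p = 0.0158). How many of all miRNAs separated the genotypes to this degree was not counted. The miR-23a call was lost without G12D replicate 6 (adjusted p = 0.0569) or WT replicate 2 (0.0545), without the batch term (0.107), with a replicate block (0.0516), and within batch 1 (0.0867) and batch 2 (0.362). The miR-449a call was lost within batch 1 (0.226) and within batch 2 (0.289).

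The annotated sites of these miRNAs are the 8mer in the second Dusp5 peak for miR-23a and a 6mer in the first Spred1 peak for miR-449a, and limma called neither peak. The first Spred1 peak was called in the authors' deposited table, as given above. miR-449a is a minor member of its family. The family of miR-34-5p and miR-449-5p summed to 6317 ± 1072 in G12D and 6935 ± 800.3 in WT, of which miR-34a-5p made 6154 ± 1075 in G12D and 6561 ± 792 in WT. Over whole families, limma called 6 of 87 (6.90%) and 0 of the 20 measured at member sites (3 at an unadjusted p of 0.05, miR-23, that of miR-28-5p and miR-708-5p, and that of miR-103-3p and miR-107-3p). The miR-23 family stood at 6069 ± 1343 in G12D and 4608 ± 1198 in WT (log2 fold change 0.42, SE 0.14, adjusted p = 0.0926). miR-28-5p with miR-708-5p stood at 203 ± 84.0 in G12D and 655 ± 621 in WT (log2 fold change -1.32, SE 0.47, adjusted p = 0.116), and miR-103-3p with miR-107-3p, which has 6mers in 3 member peaks, at 1190 ± 217 in G12D and 941 ± 182 in WT (log2 fold change 0.34, SE 0.16, adjusted p = 0.214). By member, miR-708-5p had 101 ± 90.0 in G12D and 559 ± 606 in WT, and miR-28a-5p had 102 ± 15.2 and 96.7 ± 18.7. The main limma fit did not call miR-708-5p, and 4 of 22 alternatives did.

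The families with sites longer than 6 bases in 2 member peaks were miR-15/16 and miR-181, and limma called neither. miR-15/16 stood at 5177 ± 183 in G12D and 5360 ± 321 in WT (log2 fold change -0.05, SE 0.06), and miR-181 at 12993 ± 3419 in G12D and 12860 ± 2867 in WT (0.01, SE 0.13). Within miR-181, members had fold changes of opposite sign: miR-181a-5p had 6106 ± 2358 in G12D and 4763 ± 1665 in WT (0.37, SE 0.20, adjusted p = 0.351), and miR-181d-5p had 1901 ± 390.0 in G12D and 2747 ± 650.0 in WT (-0.53, SE 0.16, adjusted p = 0.0857). limma called neither of them. miR-181d-5p was called by DESeq2 (adjusted p = 0.0269) and by limma on values scaled to each library's miRNA reads (adjusted p = 0.0269). The most abundant of the families, miR-17/20, has a 6mer alone in the fourth Spred1 peak.

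**Figure D4:**
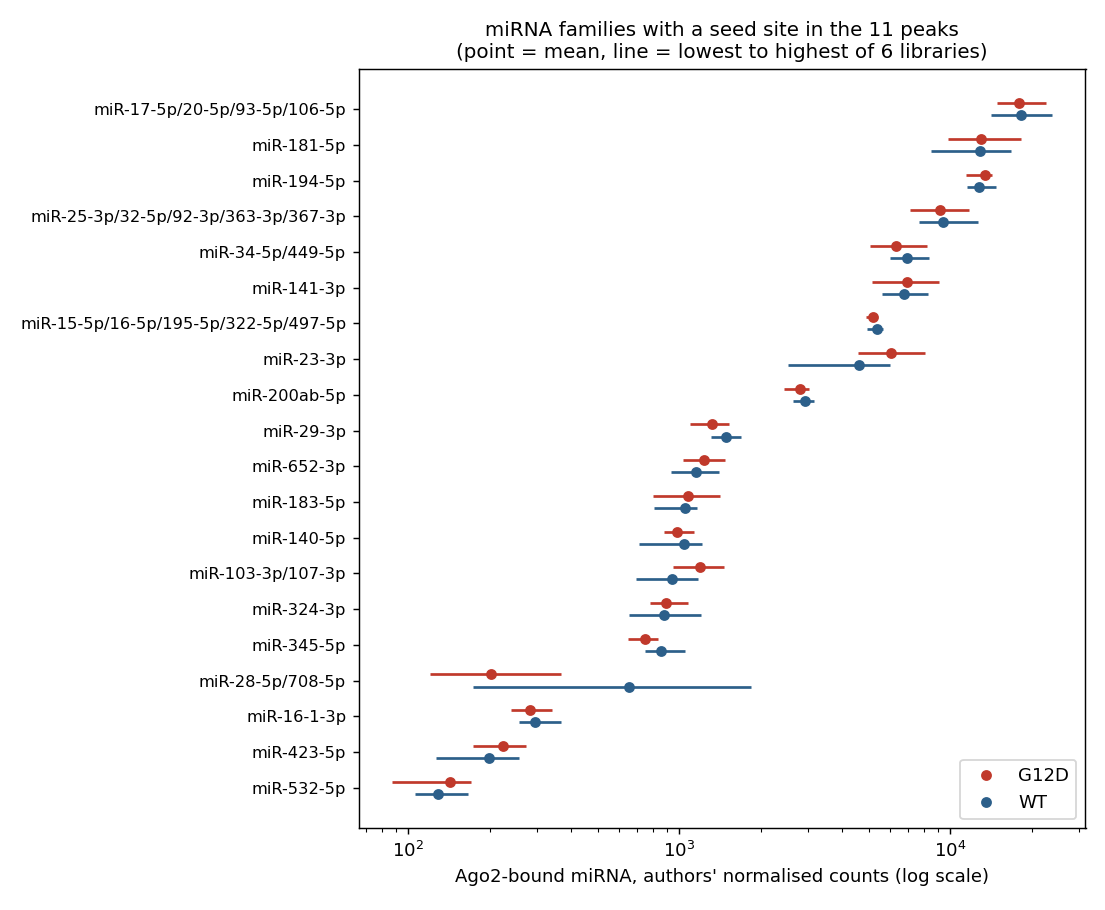
Ago2-bound level of the 20 measured miRNA families with a seed site in the 11 peaks, as the authors' normalised counts on a log axis, with the mean (point) and the lowest to highest library (line) of 6 G12D and 6 WT samples. The ranges of the genotypes overlap in each family, and miR-28-5p with miR-708-5p has the widest range, from 174 to 1834 in WT.

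Other genes of the pathway were counted in the same way. Of 28 further negative regulators 13 had a peak, limma called 0 of them, 8 had a positive log2 fold change, and their median was 0.53 against 0.57 over all genes (0.08 against 0.03 without WT replicates 5 and 6). Over all genes 82.3% had a positive log2 fold change, and 53.5% without WT replicates 5 and 6. At an unadjusted p of 0.05 the members had 2 of 7 genes, Dusp6 and Phlda1, and limma had 426 genes higher and 50 lower among 3897. Among the 5 most abundant negative regulators the log2 fold changes were -0.02 (SE 0.35) for Errfi1, an inhibitor of the EGF receptor, 0.88 (SE 0.43) for Lrig1 and -0.25 (SE 0.36) for Lrig3, membrane proteins of which Lrig1 restrains ErbB receptors, -0.17 (SE 0.39) for the phosphatase Dusp16, and 0.92 (SE 0.59) for the Ras GTPase-activating protein Dab2ip. Without WT replicates 5 and 6 they were 0.0010 for Errfi1, 0.23 for Lrig1, 0.18 for Lrig3, 0.08 for Dusp16 and -0.08 for Dab2ip, so only Lrig1 kept its sign. Spry1, Spry4 and Spred2, the nearest relatives of Spry2 and Spred1, had no peak. Of 14 genes that are outputs of the pathway 11 had a peak, 0 were called and 10 had a positive log2 fold change. Their median was 0.46 against 0.57 over all genes, and 0.35 against 0.03 (7 positive) without WT replicates 5 and 6. The 3 most abundant were the transcription factor Myc (8885 ± 4399 CPM in G12D and 4631 ± 2041 in WT, log2 fold change 0.92, SE 0.27, adjusted p = 0.372), the cyclin Ccnd1 (1.17, SE 0.46) and the EGF receptor ligand Ereg (1.96, SE 0.64, adjusted p = 0.400). Without WT replicates 5 and 6 they were 0.86 for Myc, 0.44 for Ccnd1 and 0.75 for Ereg.

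The genes whose levels ran most closely with each member, after genotype and batch were taken out, were named from 1354 or 1355 genes. These had a summed mean of at least 50 of the authors' normalised counts. Over 12 libraries Pearson's r was 0.997 for Spred1 with Eif3a, 0.990 with Zfp148 and 0.988 with Dennd4c, and over the 10 without WT replicates 5 and 6 it was 0.936, 0.963 and 0.722. For Dusp6 the nearest were Ccnf, Slc3a2 and Tfrc, at 0.990, 0.987 and 0.985 over 12 libraries and at 0.765, 0.252 and 0.178 over 10, so the likeness to Slc3a2 and Tfrc was not seen without the shallow libraries. For Phlda1 they were Gnai2 (0.864 over 12 and 0.749 over 10 libraries), Lrrc8a (0.817 and 0.647) and Bdp1 (0.789 and 0.543). Hif1an was nearest to Dusp4 (0.973 and 0.732), Sdc4 to Dusp5 (0.905 and 0.930), Msmo1 to Spry2 (0.960 and 0.828) and Hnrnpa2b1 to Ier3 (0.969 and 0.875). Among the members, Dusp6 and Spred1 had r = 0.930 over 12 libraries and -0.23 over 10. All of these share depth and library, and they are given as descriptions.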

How the data were processed

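The 36 samples are miRNA, mRNA and input libraries of 12 tumours; the input libraries were not analysed here. The submitters' processing notes name mm10 and GRCm38 as builds and STAR 2.5.2b and DESeq2 as tools, with no roles. A peak caller is not given in any source used here. The signal tables, for 596 miRNAs and 7730 merged peaks, hold normalised counts, that is reads that the authors had divided by size factors of the libraries. All values (100%, tolerance 0.001 reads) were whole multiples of 1 read, so reads were recovered. Peak columns do not give a library type, and the mRNA libraries were assumed. The deposited log2 fold changes, the deposited p-values, the score of the authors' peak lists and the authors' annotation of regions and seed sites are used as such, and 145 merged peaks lack annotation.

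Peaks and gene sums were divided by each library's total and tested with limma-trend 3.58.1 (R 4.3.3) on log2(CPM + 5), which shrinks fold changes of low peaks, for a mean of at least 5 normalised counts, with batch as covariate and Benjamini-Hochberg adjustment at 0.05. miRNAs and families were tested on log2(normalised counts + 1), for a mean of at least 10. edgeR 4.0.16 and DESeq2 1.42.0 on the recovered reads were alternatives. The fits were also run on simulated counts with the real means and library totals, and the outcome is not given here. Intervals are exact 95% binomial ones and the limit from 0 reads is 3 counts; both cover counting error only, since a read may not be a molecule of its own. miR-199-3p, with a 6mer in Spred1, was not matched to a measured miRNA. Further negative regulators and outputs were named by highest mean (5 and 3), and like genes by residual correlation (3 per member). Members and lists were chosen with earlier results of these data known.

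Replicate numbers recur in both genotypes, but same-numbered libraries did not deviate together in every pair (correlations -0.08 to 0.64 after genotype), so they were not treated as pairs.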

Additional observations from a re-analysis of the deposited data

Results flagged for a closer look

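Of 66 sets of 6 libraries checked for a single library far from the others, 5 had one, and chance flags about 1 in 20 such sets. The Dusp4 peak had 631 CPM in WT replicate 6, where the next WT library had 129. The family of miR-28-5p and miR-708-5p had 366 normalised counts in G12D replicate 1, where the next G12D library had 196. Single low libraries were miR-194-5p in G12D replicate 1 (11407, the next 13345), miR-532-5p in G12D replicate 2 (87.1, the next 141) and miR-140-5p in WT replicate 5 (710.3, the next 1060.3). The genotype difference of no member peak, gene or family differed between the batches by the test of the interaction in limma.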

How the results depend on the processing

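The direction of Dusp6, Spred1 and Phlda1, and of the first 3 Spred1 peaks and the first Dusp5 peak, held under all alternatives run, and no member passed except under DESeq2 with the deposited size factors, which called 3 member peaks and 2 genes (Dusp6 and Spred1). In all, that fit called 760 peaks higher and 27 lower of 7527, and 600 genes higher and 22 lower of 3897. Dusp4 was negative with a pseudocount of 30 (-0.16), in edgeR (-0.90), in DESeq2 with its own size factors (-1.04), with library weights (-0.38), in batch 1 (-0.38) and without WT replicates 5 and 6 (-0.36). Under the same alternatives other than the pseudocount, Ier3 was -0.14, -0.15, -0.21, -0.78 and -0.35. Spry2 was -0.028 in DESeq2 with its own size factors, -0.43 with weights, -0.38 in batch 1 and -0.20 without WT replicates 5 and 6. Dusp5 was -0.044 in that DESeq2 fit and -0.0075 in batch 1, and miR-103-3p with miR-107-3p was -0.0043 in batch 1. The second Dusp5 peak was positive with the deposited size factors (0.74; 0.69 in DESeq2), with weights (0.13), in batch 2 (0.027) and without WT replicates 5 and 6 (0.029). Leaving out 1 library at a time gave -0.85 to 0.71 for Dusp4, -0.022 to 0.50 for Dusp5, -0.26 to 0.14 for its second peak and -0.092 to 0.58 for the fourth Spred1 peak, 0 member peaks or genes called, 1 to 4 miRNAs and 0 to 1 families. The 4 miRNAs and 1 family were those called without WT replicate 5. That fit called 5 miRNAs higher and 11 lower of 284 in all, and 6 families higher and 5 lower of 87. The count was 1 miRNA without G12D replicate 6 (1 higher and 4 lower in all) and without WT replicate 2 (2 higher and 5 lower). DESeq2 called 5 miRNAs and 2 families at member sites, and the fit without a batch term 1 miRNA. In all, DESeq2 called 10 miRNAs higher and 17 lower of 284, and 6 families higher and 6 lower of 87. Without a batch term 3 of the 284 miRNAs were called higher and 3 lower. Single batches, with 3 libraries per genotype, called 0 miRNAs at member sites, and of all 284 miRNAs 1 in batch 1 and 0 in batch 2. With a replicate block the calls were 1 miRNA (miR-449a-5p, lower), 1 family (miR-23, higher), 0 member peaks and 0 member genes. In all, that fit called 1 miRNA higher and 5 lower of 284, and 4 families higher and 3 lower of 87. The batch difference of the fourth Spred1 peak kept its sign, with an adjusted p of 0.0664 at a pseudocount of 1, 0.0867 with the deposited size factors, and 0.0557, 0.0553 and 0.0642 without G12D replicate 2, WT replicate 2 and WT replicate 3. The count of member peaks called between the batches, 1 with all libraries, was 0 at a pseudocount of 1, with the deposited size factors and at a mean of at least 20 (where the fourth Spred1 peak was not tested), 2 at a pseudocount of 30 and in edgeR, 6 with library weights, 3 without WT replicates 5 and 6, and 0 to 3 without 1 library at a time. Over all 7527 peaks the counts were 1565 with all libraries, 1952 at a pseudocount of 30, 2048 in edgeR and 4712 with library weights. The causes of these shifts were not tested. Depth limits the levels in WT replicates 5 and 6, where 1 read is worth 32.7 and 17.5 CPM.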
